A study of Mus musculus with 7 samples.

Results

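The NRF2 antioxidant genes are 10 named genes, taken by gene symbol from a table of read counts for 24421 genes in 7 mouse tumours: Nfe2l2, Slc7a11, Gclc, Gclm, Gsr, Txnrd1, Srxn1, G6pdx, Nqo1 and Hmox1. All 10 were found and all 10 passed the filter on low counts. Anti-LAIR1, an antibody to a leukocyte receptor that binds collagen and restrains the cell, had been given to 4 of the mice. The 3 control mice had received anti-KLH, a control antibody, and mice of both groups were treated with anti-PD-1 as well. The labels give week 4 for all 7 tumours without saying from which event. The series text describes tumours grown under the skin of male and female 129/Sv mice aged 6 to 8 weeks from 344SQ, a line from a lung tumour of a genetically engineered mouse, with doses of 10 mg/kg for anti-LAIR and 8 mg/kg for anti-PD-1. It also describes lung tumours of genetically engineered mice that received adenovirus-cre through the trachea at 3 to 4 months and antibodies 2 months later. Which of these models the 7 tumours represent is not stated in the labels. Mouse names begin with WTSV for all treated mice and with LOHM or KWM for all controls, so whatever these prefixes stand for and the treatment cannot be told apart.

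NRF2, encoded by Nfe2l2, is a transcription factor that is bound by KEAP1 and degraded while the cell is unstressed. Oxidants and electrophiles modify KEAP1, NRF2 then accumulates, pairs with a small MAF protein and binds antioxidant response elements in the promoters of genes for glutathione synthesis, thioredoxin recycling, NADPH supply and quinone and haem breakdown. The pathway is known in lung cancer, where tumours can carry mutations that activate it, and the cystine importer among its targets, Slc7a11, is also a target of the amino acid stress factor ATF4.

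The windows around the start sites were searched for letters of the response element. RefSeq promoter windows of GRCm38.p6 were found for 7 of the 10 genes, and Gclc, Hmox1 and Gsr had none in that table. The response element core, written TGACNNNGC with N for any base and searched on both strands, was present in a 300-base window of 5 of these 7 genes, and 14.0% of 27025 genes have it in such a window. Its longer form TGACNNNGCA was present in 1 of the 7 and in 3.45% of all genes. The core lies within the longer form, so both counts include the same match. The next lines show the 150 bases that end just before the start site, 5′ to 3′ along the gene, for 3 genes with the core and for Slc7a11, which has none in its window. Capitals mark the core, here always as its reverse complement, and in Slc7a11 the amino acid response element core TGATGNAA to which ATF4 can bind.
Gclm: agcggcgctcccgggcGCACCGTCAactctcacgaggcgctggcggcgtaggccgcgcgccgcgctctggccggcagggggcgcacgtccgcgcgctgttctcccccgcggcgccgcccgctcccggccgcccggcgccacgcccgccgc
G6pdx: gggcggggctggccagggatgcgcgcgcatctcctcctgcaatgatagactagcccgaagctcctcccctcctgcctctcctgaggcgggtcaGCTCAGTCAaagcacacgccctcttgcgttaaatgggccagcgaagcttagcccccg
Txnrd1: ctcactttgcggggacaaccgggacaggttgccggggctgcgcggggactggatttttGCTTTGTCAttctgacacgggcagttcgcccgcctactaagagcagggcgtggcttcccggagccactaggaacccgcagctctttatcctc
Slc7a11: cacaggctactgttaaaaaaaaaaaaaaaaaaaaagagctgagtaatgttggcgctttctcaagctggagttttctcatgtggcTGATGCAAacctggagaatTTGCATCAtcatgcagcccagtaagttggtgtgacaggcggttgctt
The stretch of Gclm is chr3:122245407-122245556 on the plus strand, and its match starts at base -134 from the start site. That of G6pdx is chrX:74428881-74429030 on the minus strand with a match at -57. That of Txnrd1, before the start that carries the longer form, is chr10:82859056-82859205 on the plus strand with a match at -92. That of Slc7a11 is chr3:50443614-50443763 on the minus strand and holds 2 amino acid response element cores, at -66 on the gene's strand and at -47 on the other. This core was searched for after the values were seen, is absent from the windows of the other 6 genes and occurs in 4.51% of all genes. A match is a description of letters and not a bound site.

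No NRF2 antioxidant gene was called different between anti-LAIR1 and control tumours. The count was 0 of 10 for edgeR's quasi-likelihood test with Benjamini-Hochberg adjustment over 13545 genes at a threshold of 0.05, where 0% of all genes passed. At an unadjusted p under 0.05 the count was 0 of 10, beside 5.15% of all genes (3.51% higher and 1.63% lower with anti-LAIR1). It was 1 of 10 when library totals replaced TMM (Srxn1), without anti-LAIR1 replicate 3 or control replicate 2 (Srxn1 again) and without control replicate 3 (Gclc). The libraries of the groups did not overlap in 0 of 10 genes, beside 5.57% (3.06% higher and 2.51% lower). DESeq2, which gave no p for Slc7a11, called 0 of the 10, beside 0.39% of 13846 genes, and limma-voom called 0, beside 0%. Estimates, here always log2 fold changes of anti-LAIR1 over control, were positive for 8 genes, with a median of 0.12 over the 10 and of -0.0028 over all genes tested. Without control replicate 1 the median turned to -0.0045 with 5 of 10 positive, and without anti-LAIR1 replicate 4 it was 0.036 with 6 of 9 positive. The summed level was 1048 to 1244 CPM (counts scaled to the library total, the total itself scaled by TMM) in anti-LAIR1 tumours and 948 to 1171 CPM in control tumours. For 8 of the genes the 95% interval of the fold change lay between 0.704 and 1.47, while it ran from 0.644 to 8.83 for Slc7a11 and from 0.374 to 3.39 for Nqo1.

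**Figure D1:**
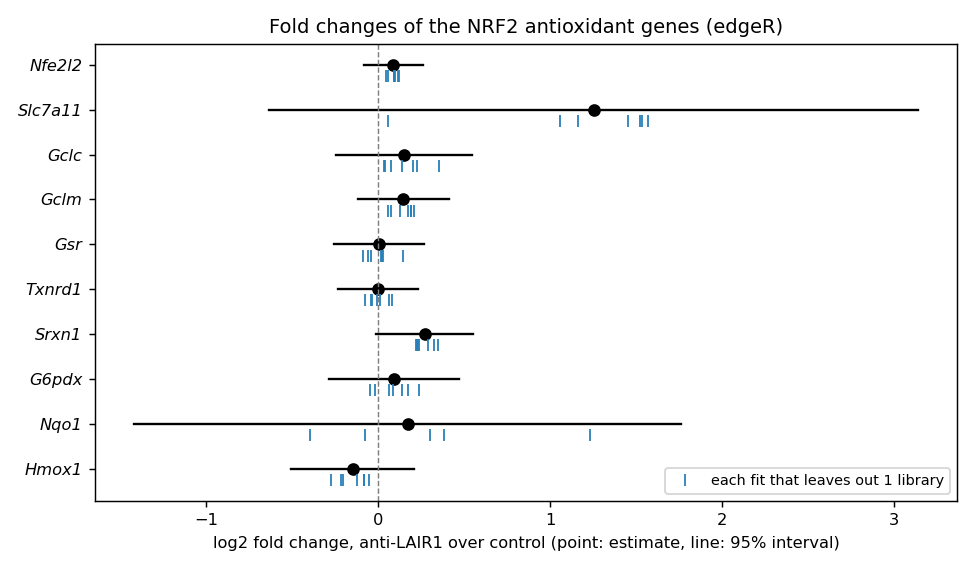
Log2 fold changes of the 10 genes, anti-LAIR1 over control, with 95% intervals as black lines and the estimates from fits that leave out 1 library as blue ticks. Every interval includes 0, and the estimate for Slc7a11 is 1.25 with all libraries and 0.060 without anti-LAIR1 replicate 4.

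The libraries held 11480651 to 15347403 counts in anti-LAIR1 tumours and 9879762 to 26255727 in controls. All 7 tumours had epithelial markers, with summed levels of 4850 to 5853 CPM in anti-LAIR1 tumours against 4747 to 5885 CPM in control tumours. In bulk tissue, fewer cells of a type and less RNA per cell cannot be told apart. Macrophage markers had positive fold changes in 12 of 12 genes, with sums of 573 to 708 CPM in anti-LAIR1 tumours against 456 to 594 CPM in control tumours, and 0 passed edgeR's adjusted test. In 2 of the 12 the groups did not overlap, higher, beside 3.06% of all genes. DESeq2 called 1 of the 12, beside 0.39% of 13846 genes. This was Csf1r, a macrophage growth factor receptor, higher at 64.3 ± 8.2 CPM in anti-LAIR1 tumours (SD, n = 4) against 42.5 ± 3.75 CPM in control tumours (SD, n = 3), with an adjusted p of 0.00948 by DESeq2. Endothelial markers had sums of 133 to 158 CPM in anti-LAIR1 tumours and 97.0 to 127 CPM in controls, without overlap of the sums, and positive fold changes in 6 of 6 genes. Gene by gene, the groups did not overlap in 2 of the 6, higher, beside 3.06% of all genes. By edgeR 3 of the 6 had an unadjusted p under 0.05, higher, beside 3.51%, and 0 passed the adjusted test. T cell markers had positive fold changes in 4 of 4 tested genes, with overlapping sums of 6.91 to 28.7 CPM in anti-LAIR1 tumours and 3.52 to 12.0 CPM in controls. The part of these cells in the levels of the 10 genes was not tested. Muscle markers were higher in anti-LAIR1 replicates 1, 3 and 4, with sums of 83.2 to 119.6 CPM, than in replicate 2 at 9.98 CPM and in the controls at 5.07 to 8.25 CPM. DESeq2 called 2 of the muscle markers, both higher with anti-LAIR1. Keratinocyte markers summed to 12.9 to 24.6 CPM in anti-LAIR1 tumours against 34.7, 24.6 and 129 CPM in control replicates 1, 2 and 3, and Krt1 and Krt5 in control replicate 3 stood at 16.4 and 40.3 CPM while all other libraries were under 0.1 CPM.

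Levels per length differed far more between the genes than between the groups. Per kilobase of exon sequence in the GENCODE M21 annotation, Gsr averaged 129 ± 10.6 CPM per kb with anti-LAIR1 (SD, n = 4) and 129 ± 21.4 CPM per kb in controls (SD, n = 3), the highest level of the 10. Nfe2l2, Gclc, Txnrd1, G6pdx, Hmox1, Gclm, Srxn1, Slc7a11 and Nqo1 followed in this order by the mean over the 7 libraries, which was 63.7 CPM per kb for Nfe2l2 and 0.464 CPM per kb for Nqo1. Neighbours in this order had ranges apart from each other for Gsr and Nfe2l2, Nfe2l2 and Gclc, Gclc and Txnrd1, G6pdx and Hmox1, and Hmox1 and Gclm. The ranges overlapped between Txnrd1 and G6pdx, between Gclm and Srxn1, between Srxn1 and Slc7a11 and between Slc7a11 and Nqo1, although Slc7a11 was above Nqo1 within each of the 7 libraries. Slc7a11 has 13.9 kb of annotated exon sequence, against 1.55 kb for Nqo1, and a length longer than the transcripts present would understate its level.

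**Figure D2:**
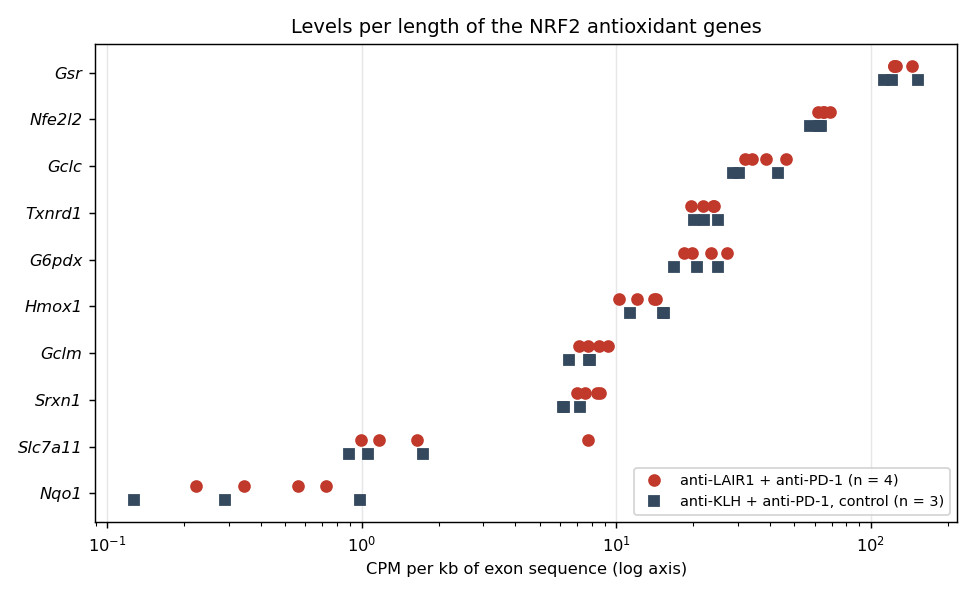
CPM per kb of exon sequence of the 10 genes on a log axis, 1 point per tumour, with anti-LAIR1 as circles above and control as squares below. The genes run from Gsr at 129 CPM per kb down to Nqo1 at under 1 CPM per kb, and the single Slc7a11 point far to the right is anti-LAIR1 replicate 4.

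Nfe2l2, the regulator itself (chromosome 2, 75675513 to 75704641, minus strand, GRCm38), was evenly expressed. It had 247, 249, 235 and 262 CPM in anti-LAIR1 replicates 1 to 4 and 238, 243 and 219 CPM in control replicates 1 to 3. The groups overlapped, and the estimate on the log2 scale was 0.089 (SE 0.077, edgeR adjusted p = 1.00). Keap1, which holds NRF2 for degradation, averaged 49.2 ± 3.04 CPM in anti-LAIR1 tumours (SD, n = 4) against 50.4 ± 2.53 CPM in control tumours (SD, n = 3). Of 14 listed regulators and partners of NRF2, 13 were tested and 0 passed in either direction. Their fold changes were negative for 10 of the 13, with a median of -0.072 and a range from -0.21 to 0.046. The smallest p-values in this list belonged to Mafg, Btrc and Park7, at 0.0948, 0.155 and 0.377 unadjusted. Mafg, a small MAF partner of NRF2, was 1 of 13 genes and the one whose groups did not overlap (lower, beside 2.51% of all genes), at 37.7 ± 1.84 CPM in anti-LAIR1 tumours against 42.5 ± 3.30 CPM in control tumours. The groups nearly touched: the highest anti-LAIR1 library had 40.18 CPM and the lowest control library 40.19 CPM. Bach1, the repressor that competes with NRF2 for response elements, averaged 113 ± 8.90 CPM in anti-LAIR1 tumours against 114 ± 3.09 CPM in control tumours.

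Slc7a11, which imports cystine for glutathione synthesis in exchange for glutamate (chromosome 3, 49892526 to 50443614, minus strand), varied most, and 1 tumour made its difference. It had 16.2, 22.9, 13.8 and 108 CPM in anti-LAIR1 replicates 1 to 4 and 12.4, 14.7 and 24.2 CPM in control replicates 1 to 3. Anti-LAIR1 replicate 4 was 4.46 times the next highest library, a control, and the other 6 libraries of both groups overlapped. The estimate on the log2 scale was 1.25 (SE 0.80, 95% interval from -0.64 to 3.14, edgeR adjusted p = 1.00), while limma-voom, which weights libraries by quality, gave 0.52. Without anti-LAIR1 replicate 4 the edgeR estimate was 0.060. The Slc7a11 values rest on 2984 counts in all, 1487 of them in that library.

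**Figure D3:**
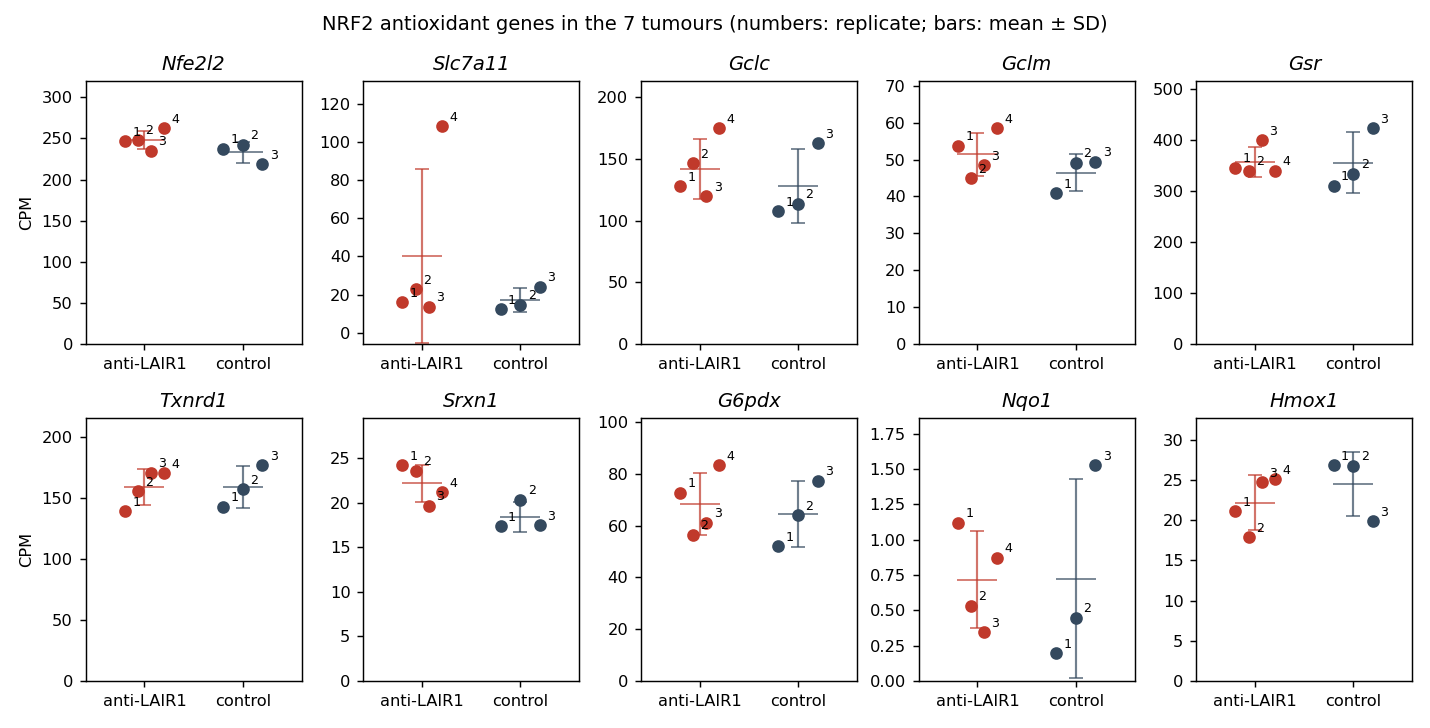
CPM of each gene in each tumour, anti-LAIR1 on the left and control on the right, with the replicate number at each point and bars for the mean ± SD. Apart from Slc7a11 in anti-LAIR1 replicate 4, at 108 CPM, the points of the groups overlap in every panel.

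Many, though not all, listed ATF4 targets, genes of amino acid supply and stress that Slc7a11 shares a regulator with, were also highest in that tumour. The list of 12 genes includes Atf4 itself. Of the 12, 9 had their highest level of the 7 libraries in anti-LAIR1 replicate 4, Atf4 among them, beside 19.1% of all genes tested. Other lists shared this: the same library was highest for 3 of 4 superoxide dismutases and catalase, 4 of 6 NADPH oxidase genes, 6 of 12 macrophage markers, 11 of 25 further NRF2 targets and 8 of 19 glutathione system genes, and whether the lists differ in it was not tested. Trib3, a pseudokinase induced under stress, had 28.9 CPM there and 7.13 to 10.7 CPM in the other 6 tumours. Slc7a5, a large neutral amino acid transporter, had 164 CPM there and 52.7 to 83.9 CPM elsewhere, and Asns, asparagine synthetase, 66.9 CPM against 25.5 to 42.5 CPM. Slc3a2, the heavy chain that pairs with Slc7a11 and Slc7a5, had 169 CPM against 110 to 126 CPM elsewhere. The transcript of Atf4 itself, which is controlled largely in translation, was 136 CPM there and 124 to 133 CPM in the others. The part of ATF4 activity in the levels of these genes was not tested. The listed genes not highest in anti-LAIR1 replicate 4 were Ddit3, Phgdh and Ddit4, with 7.56, 55.3 and 52.9 CPM there. Their highest levels in the other tumours were 9.38, 68.7 and 58.6 CPM. As a comparison of the groups, the list had a median log2 fold change of 0.20 with 0 of 12 genes past edgeR's adjusted test and 0 of 12 at an unadjusted p under 0.05. Sesn2, a stress-induced inhibitor of growth signalling, averaged 12.6 ± 4.43 CPM in anti-LAIR1 tumours (SD, n = 4) against 8.98 ± 0.99 CPM in control tumours (SD, n = 3). It had 19.1 CPM in anti-LAIR1 replicate 4 and 8.15 to 11.1 CPM in the other 6 tumours. Ddit4, another such inhibitor, averaged 45.0 ± 8.21 CPM in anti-LAIR1 tumours against 54.3 ± 4.19 CPM in control tumours.

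Anti-LAIR1 replicate 4 also stood apart in lung epithelial markers. All 4 tested markers were highest there, and the list of 6 summed to 3346 CPM in that tumour, 1236 to 1747 CPM in the other 3 anti-LAIR1 tumours and 1383 to 1684 CPM in controls. Sftpb, a surfactant protein of lung epithelium, made up most of this with 3103 CPM there, and Ager, a marker of flat alveolar cells, had 25.4 CPM against 5.19 to 10.7 CPM in the others. Sftpc and Scgb1a1, also on this list, were under 0.6 CPM in all 7 libraries, where Sftpb ran from 1094 to 3103 CPM. Fibroblast markers had their lowest sum in the same tumour, 1948 CPM, against 2365 to 3329 CPM in the other 6. The part of tumour composition in the Slc7a11 level was not tested. Trib3, Slc7a5, Slc3a2, Atf4, Ddit3, Phgdh, Sftpb and Ager were named after their values were seen.

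**Figure D4:**
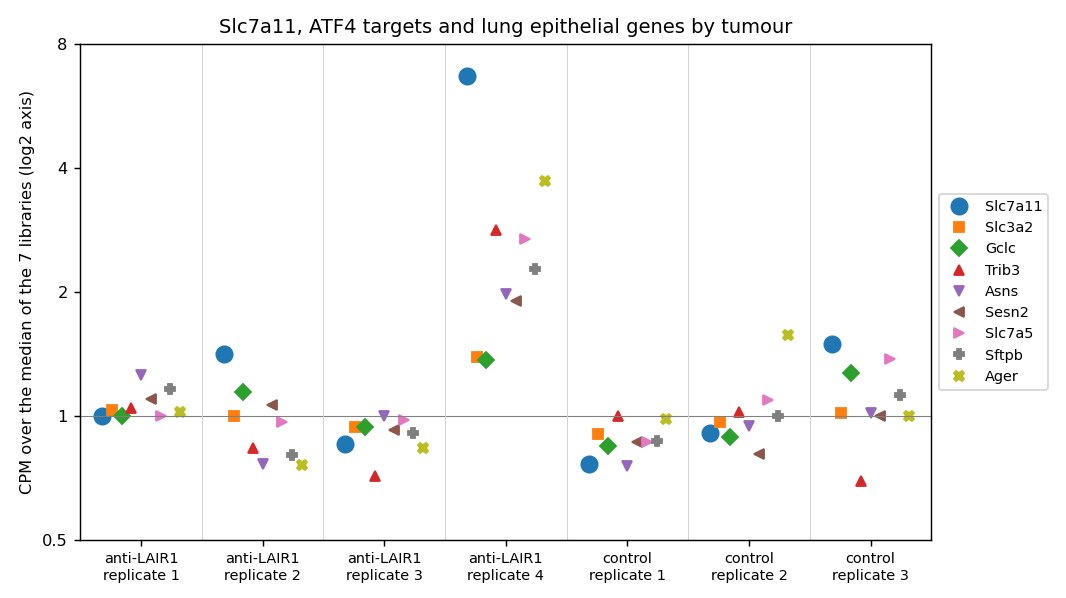
Level of Slc7a11, its partner Slc3a2, Gclc, 4 ATF4 targets and 2 lung epithelial genes in each tumour, as CPM over the median of the 7 libraries on a log2 axis. All 9 genes shown are highest in anti-LAIR1 replicate 4, where Slc7a11 has 108 CPM, and lie closer to their medians in the other 6 tumours. Trib3, Slc7a5, Slc3a2, Sftpb and Ager were chosen after their values were seen, so the shared peak is no test. Ddit3, Phgdh and Ddit4, listed ATF4 targets that are not highest there, are among the genes left out.

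Gclc and Gclm encode the catalytic and the modifier subunit of glutamate-cysteine ligase, the rate-limiting enzyme of glutathione synthesis. Gclc (chromosome 9, 77754535 to 77794485, plus strand) had 128, 146, 120.0 and 175 CPM in anti-LAIR1 replicates 1 to 4 and 108, 114 and 163 CPM in control replicates 1 to 3. One library of each group was high and the groups overlapped. Its estimate on the log2 scale was 0.15 (SE 0.17, edgeR adjusted p = 1.00), with values of 0.036 without anti-LAIR1 replicate 4 and 0.36 without control replicate 3. Gclm (chromosome 3, 122245557 to 122270732, plus strand) had 53.7, 45.0, 48.4 and 58.4 CPM in anti-LAIR1 replicates 1 to 4 and 40.8, 49.1 and 49.5 CPM in control replicates 1 to 3, overlapping, with a log2 fold change of 0.15 and an SE of 0.12.

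Gsr and G6pdx keep glutathione reduced. Gsr, glutathione reductase (chromosome 8, 33652523 to 33698163, plus strand), ranged from 339.6 to 399.8 CPM in anti-LAIR1 tumours against 310.4 to 422 CPM in control tumours, and its estimate on the log2 scale was 0.0038 (SE 0.12). The control range enclosed the anti-LAIR1 range. G6pdx, glucose-6-phosphate dehydrogenase, which supplies NADPH (chromosome X, 74409483 to 74429194, minus strand), ranged from 56.5 to 83.4 CPM in anti-LAIR1 tumours against 52.0 to 77.4 CPM in control tumours, with a log2 fold change of 0.091 and an SE of 0.17. The gene overlaps Ikbkg on the opposite strand, and without a known strand setting of the counting, reads in the overlap cannot be assigned to one gene with certainty. G6pd2, an intronless copy of G6pdx, held 2 counts over all libraries.

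Txnrd1 and Srxn1 serve the thioredoxin and peroxiredoxin system. Txnrd1, thioredoxin reductase (chromosome 10, 82833951 to 82897712, plus strand), ranged from 139 to 171 CPM in anti-LAIR1 tumours against 143 to 177 CPM in control tumours. Its estimate on the log2 scale was -0.00028 (SE 0.10), and its 95% interval ran from -0.23 to 0.23. Eid3 lies within Txnrd1 on the same strand with 791 counts, against 16214 for Txnrd1. Srxn1, sulfiredoxin, which repairs overoxidised peroxiredoxins (chromosome 2, 152105516 to 152111376, plus strand), had the smallest p of the 10. It had 24.2, 23.6, 19.7 and 21.2 CPM in anti-LAIR1 replicates 1 to 4 and 17.4, 20.3 and 17.5 CPM in control replicates 1 to 3. Of the 4 anti-LAIR1 libraries, 3 lay above every control, and replicate 3 lay below control replicate 2. The estimate on the log2 scale was 0.27 (SE 0.13, 95% interval from -0.011 to 0.55, edgeR unadjusted p = 0.0575, adjusted p = 0.972).

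Nqo1, the quinone reductase often used to read NRF2 activity (chromosome 8, 107388225 to 107403206, minus strand), was nearly silent in all 7 tumours. It had 17, 8, 4 and 12 counts in anti-LAIR1 replicates 1 to 4 and 5, 6 and 15 counts in control replicates 1 to 3. These are 1.12, 0.532, 0.345 and 0.872 CPM in anti-LAIR1 tumours against 0.198, 0.449 and 1.53 CPM in controls, where 3 counts are worth 0.198 to 0.259 CPM in the anti-LAIR1 libraries and 0.119 to 0.305 CPM in the control libraries. The highest library was control replicate 3, which also held the keratinocyte markers given above, and a part of these in the Nqo1 level was not tested. No difference was detectable: the 95% interval of the log2 fold change ran from -1.42 to 1.76, and the estimate was 0.17 with all libraries, -0.40 without control replicate 1, -0.078 without control replicate 2 and 1.23 without control replicate 3.

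Hmox1, haem oxygenase 1, which breaks down haem and is abundant in iron-recycling macrophages (chromosome 8, 75093621 to 75100589, plus strand), had 21.1, 17.9, 24.7 and 25.1 CPM in anti-LAIR1 replicates 1 to 4 and 26.8, 26.8 and 19.9 CPM in control replicates 1 to 3. The groups overlapped, and the estimate on the log2 scale was -0.15 (SE 0.16, edgeR adjusted p = 1.00). Besides Txnrd1 it was the one of the 10 genes with a negative estimate, while the macrophage markers given above had positive ones. The Hmox1 estimate was smaller in size than its SE, so its sign is not settled. The part of macrophages in the Hmox1 level was not tested. Of 14 tested genes of haem and iron handling, 0 passed in either direction, 10 had positive fold changes and the median was 0.066. The smallest p belonged to Hmox2, the constitutive haem oxygenase, at 32.5 ± 2.53 CPM in anti-LAIR1 tumours (SD, n = 4) against 28.1 ± 4.03 CPM in control tumours (SD, n = 3). Blvrb and Ireb2 followed, with log2 fold changes of 0.17 and -0.080.

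Other redox genes, from lists outside the 10, gave the same count of 0 past edgeR's adjusted test in each list. Among 25 tested further NRF2 targets, 19 had positive fold changes, the median was 0.10, and 4 had an unadjusted p under 0.05, all higher, beside 3.51% of all genes. They were Gstm2 and Gsta4, glutathione transferases, Ephx1, an epoxide hydrolase, and Me1, an NADPH-producing malic enzyme. In 3 of the 25, Gstm2, Gsta4 and Fech, which makes haem from its precursor, the groups did not overlap, all higher, beside 3.06% of all genes. The lowest anti-LAIR1 and highest control libraries lay close for Gsta4, at 41.4 and 40.5 CPM, and for Fech, at 40.2 and 39.9 CPM. For Gstm2 they had 4.66 and 3.89 CPM. Gsta4 reached 85.3 CPM in anti-LAIR1 replicate 4. Gsta4 averaged 57.5 ± 19.6 CPM in anti-LAIR1 tumours against 33.3 ± 9.71 CPM in control tumours, and Me1 266 ± 41.6 CPM in anti-LAIR1 tumours against 212 ± 19.7 CPM in control tumours, with log2 fold changes of 0.80 and 0.33 and adjusted p of 0.938 and 0.937 by edgeR. Gstm2 averaged 5.13 ± 0.467 CPM in anti-LAIR1 tumours against 3.08 ± 1.05 CPM in control tumours, and Ephx1 7.72 ± 1.16 CPM in anti-LAIR1 tumours against 5.08 ± 1.21 CPM in control tumours. Reads of glutathione transferases of the mu class resemble one another, so the Gstm2 count is uncertain. Gstm1 of the same class, named after its values were seen, had 317 CPM in anti-LAIR1 replicate 4 against 66.3 to 99.2 CPM in the other 6 tumours, overlapping between the groups.

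Of 19 glutathione system genes, 15 had positive fold changes with a median of 0.15, and 2 had an unadjusted p under 0.05, both higher, beside 3.51% of all genes. In 1 of the 19, Mgst2, the groups did not overlap, higher, beside 3.06% of all genes. Its lowest anti-LAIR1 library had 27.7 CPM and its highest control library 27.6 CPM. Gsto1, an omega-class transferase, averaged 190.5 ± 12.2 CPM in anti-LAIR1 tumours against 161 ± 21.6 CPM in control tumours. Glrx, glutaredoxin, averaged 27.0 ± 10.3 CPM in anti-LAIR1 tumours against 17.4 ± 1.64 CPM in control tumours, and the groups overlapped. It reached 40.8 CPM in anti-LAIR1 replicate 4 and had 15.9 to 28.6 CPM in the other tumours. Mgst2 came next by p. Of 14 thioredoxin and peroxiredoxin genes the median was 0.066, and Txnip, an inhibitor of thioredoxin, was the 1 of 14 with an unadjusted p under 0.05, higher, beside 3.51% of all genes, at 232 ± 67.3 CPM in anti-LAIR1 tumours against 166 ± 13.8 CPM in control tumours. Prdx1, a peroxiredoxin that reduces hydrogen peroxide, averaged 485 ± 30.2 CPM in anti-LAIR1 tumours against 436 ± 16.9 CPM in control tumours. Txnrd3 came next by p, with a negative log2 fold change of -0.20. Of the 14 genes, 9 had positive and 5 negative fold changes. Cat, catalase, was 1 of 4 tested superoxide and peroxide enzymes and did not overlap between the groups, beside 3.06% of all genes for non-overlap and 3.51% for an unadjusted p under 0.05, both higher. It stood at 87.7 ± 3.41 CPM in anti-LAIR1 tumours against 76.3 ± 7.0 CPM in control tumours (edgeR unadjusted p = 0.0480, adjusted p = 0.967). Sod1 and Sod2, the next by p, had fold changes of 0.21 and 0.12 on the log2 scale.

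Phagocyte NADPH oxidase, the source of superoxide in myeloid cells, had a median log2 fold change of 0.19 over 6 tested subunits. The list was split, with 4 positive and 2 negative fold changes, from -0.14 to 0.55. In 1 of the 6 the groups did not overlap, higher, beside 3.06% of all genes. Rac2, its small GTPase, averaged 10.9 ± 1.87 CPM in anti-LAIR1 tumours against 8.26 ± 0.566 CPM in control tumours at an unadjusted p of 0.0471 by edgeR, 1 of the 6 under 0.05, beside 3.51% of all genes in this direction. Cybb, the catalytic subunit, averaged 36.0 ± 12.7 CPM in anti-LAIR1 tumours against 24.4 ± 8.24 CPM in control tumours. Macrophage marker sums, given above, were also higher in anti-LAIR1 replicates 1, 3 and 4 than in every control, and their part in these levels was not tested.

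**Figure D5:**
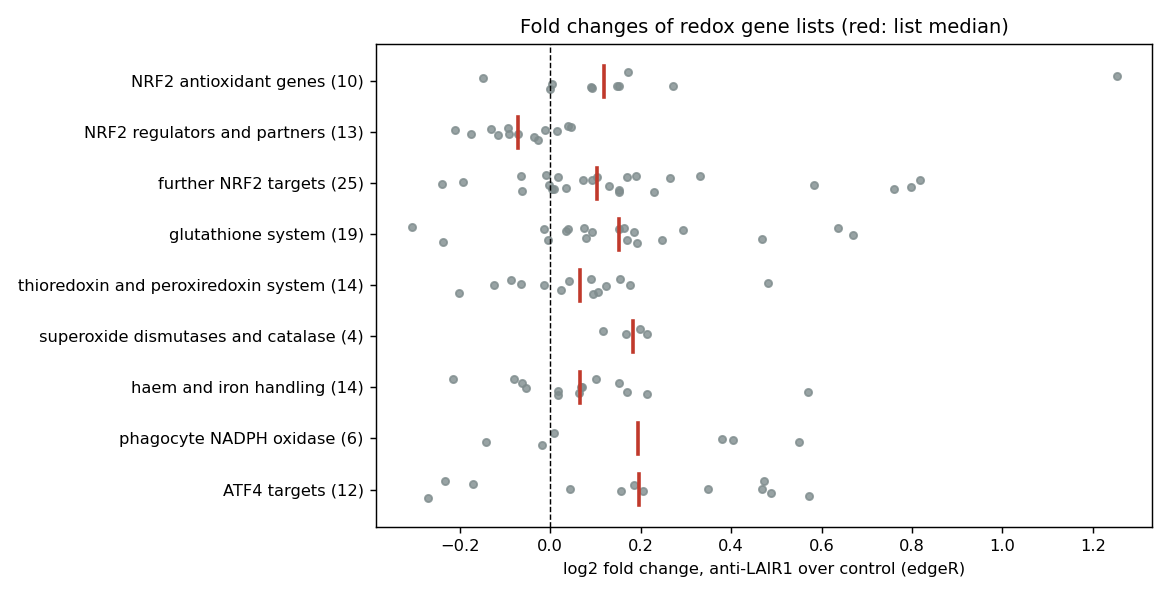
Log2 fold changes, anti-LAIR1 over control, of the tested genes in each redox list, 1 point per gene, with the list median in red. List medians lie between -0.072 and 0.20, and the point far to the right in the first list is Slc7a11 at 1.25.

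Among the 10 genes themselves, levels across the 7 tumours were compared pair by pair. Of 45 gene pairs, 31 had a positive Pearson correlation of log2 CPM, with a median of 0.31 and a range from -0.66 for Nfe2l2 with Gsr to 0.92 for Gclm with G6pdx. Slc7a11 and Gclc gave r = 0.85 (exact permutation test, two-sided p = 0.000397, adjusted over the 45 pairs 0.0179) and Spearman's rho of 0.96 (exact permutation p = 0.00278, adjusted 0.0625). Their r was 0.96 without the 2 libraries farthest from the median of Slc7a11, and 0.83 after the group means were subtracted. Gclm and G6pdx gave r = 0.92 (exact permutation p = 0.00298, adjusted 0.0670) and rho of 0.96 (exact permutation p = 0.00278, adjusted 0.0625), with r = 0.76 without the 2 farthest libraries and 0.95 after subtraction of group means. The pair of Slc7a11 and Gclc was the one under an adjusted p of 0.05, by r and not by rho, and all pairs share the same libraries and scaling. Anti-LAIR1 replicate 4 was the highest of the 7 libraries in 5 of the 10 genes and control replicate 1 the lowest in 7, beside 19.1% and 15.7% of all genes tested. Other lists shared this: control replicate 1 was lowest in 5 of 7 epithelial markers, 5 of 6 endothelial markers and 3 of 4 superoxide dismutases and catalase. It was lowest in 0 of 13 NRF2 regulators and partners and in 1 of 8 fibroblast markers. Whether the lists differ in it was not tested. Control replicate 1 was the most deeply sequenced library, with 26255727 counts, and the part of depth in these levels was not tested. Over the 7 libraries, the genes whose log2 CPM followed the mean standardised level of the 10 most closely among 10059 others were Kazn, Psmc2 and Itih2, with r of 0.99, 0.99 and 0.98 and rho of 0.96 each, where the tenth gene in this ranking had r = 0.96.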

How the data were processed

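Polyadenylated RNA of 7 tumours was sequenced as directional libraries, per the labels' protocols. The authors deposited raw read counts per gene symbol, with 1 column per mouse. The submitters' processing notes name mm10 and the tools STAR 2.7.6, edgeR 3.40.1, featureCounts 2.0.1 and Trim Galore. Annotation, strandedness of counting and treatment of multi-mapped reads: not given in the sources used here. The count table was tested in R 4.3.3 by edgeR 4.0.16: filterByExpr at a minimum count of 10 kept 13545 of 24421 genes, totals were scaled by TMM, and the robust quasi-likelihood test compared the groups with no covariate. Alternatives were limma-voom (limma 3.58.1, with quality weights for each library) and DESeq2 1.42.0, besides other scaling, no count filter and fits without each library. Log2 CPM used a prior count of 2, and values after ± are SDs over libraries.

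Exon lengths and gene coordinates come from GENCODE M21 on GRCm38, the assembly mm10 names, and promoter windows from RefSeq on GRCm38.p6, all counted from 1. Promoter positions count from the RefSeq start site. Each tumour came from a separately named mouse, and floors of 3 counts cover counting error only. The members and all lists were chosen with earlier results of these data known. Named genes were the 10 members, up to 3 tested genes with the smallest p in each redox list, and the 3 genes of at least 3 log2 CPM that followed the members' mean most closely. Some genes and alleles are not reported here. Genes named for another reason are marked or illustrate a list. Figures were drawn with matplotlib 3.10.9.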

Additional observations from a re-analysis of the deposited data

Results flagged for a closer look

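Of the 10 genes, 2 had 1 library among the 4 anti-LAIR1 tumours that lay far from the other 3, by a gap above the Dixon critical value at 95%. Slc7a11 had 108 CPM in anti-LAIR1 replicate 4, where the nearest was 22.9 CPM, a gap of 0.904 of the range. Gsr had 399.8 CPM in anti-LAIR1 replicate 3, where the nearest was 346 CPM, a gap of 0.896 of the range, and this value lies within the control range. Chance flags about 1 in 20 such groups, and 10 were looked at.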

How the results depend on the processing

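None of the 10 genes passed the adjusted test in any of the 12 alternatives. Over all genes, edgeR called 0, DESeq2 54, and fits that left out a library 0 to 3, the 3 coming without anti-LAIR1 replicate 2. The median log2 fold change of the 10 lay between -0.0045, with 5 of 10 positive, without control replicate 1 and 0.21, with 9 of 10 positive, without control replicate 3. Nfe2l2, Gclc, Gclm, Srxn1 and Slc7a11 stayed positive and Hmox1 negative in every alternative that gave a value. Slc7a11 ran from 0.060 to 1.57 and was 0.52 with limma-voom. Signs turned only for genes near 0 or with few counts. Txnrd1, at -0.00028, was 0.00053 with DESeq2 size factors, 0.030 with library totals and 0.0010 with no filter, and from -0.076 to 0.079 without single libraries. G6pdx was -0.024 with limma-voom and from -0.048 to 0.24 without single libraries. Gsr ran from -0.089 to 0.14 and Nqo1 from -0.40 to 1.23 without single libraries, and Nqo1 missed the count filter in 2 of those fits. The cause of these shifts was not tested. No paired analysis was possible because the labels give no replicate numbers shared by the groups. Nqo1 had 67 counts in all, and the part of depth in its wide interval was not tested. At an unadjusted p under 0.05, 1 of the 10 genes passed in 4 alternatives: Srxn1 with library totals and without anti-LAIR1 replicate 3 or control replicate 2, and Gclc without control replicate 3.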
